A study of Arabidopsis thaliana with 9 samples.

Results

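The genes described here are 10 members of the mitogen-activated protein (MAP) kinase cascade of stress signalling in Arabidopsis thaliana. They are the MAP kinase kinase kinase MEKK1 (AT4G08500), the MAP kinase kinases MKK1 (AT4G26070), MKK2 (AT4G29810), MKK4 (AT1G51660), MKK5 (AT3G21220) and MKK9 (AT1G73500), and the MAP kinases MPK3 (AT3G45640), MPK4 (AT4G01370), MPK6 (AT2G43790) and MPK11 (AT1G01560). They were taken by their gene identifiers, as kinases with known roles in stress signalling, with earlier results of these data known, and they are 10 of the 32833 genes with deposited values. RNA-Seq gave their transcript levels in 9 samples, 3 from plants exposed to flooding with physical flow, 3 from plants exposed to submergence and 3 from control plants. All plants were Columbia-0 (Col-0, the common laboratory accession) at an age of 4 weeks, and each sample pooled the rosettes of 10 plants, so differences between single plants were not measured. Flooding meant 30 min at 8 L/s in an open channel to which the plants were anchored, and submergence meant 30 min in still water 10 cm deep in a plastic container, so the flow and the vessel cannot be told apart. The control plants were exposed to neither stress.

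MAP kinase cascades pass signals from receptors at the cell surface to enzymes and transcription factors. A MAP kinase kinase kinase phosphorylates a MAP kinase kinase, which in turn phosphorylates a MAP kinase on a threonine and a tyrosine. In Arabidopsis, MKK4 and MKK5 act on MPK3 and MPK6, which drive ethylene, camalexin and defence responses, whereas MEKK1 acts through MKK1 and MKK2 on MPK4, which restrains immunity. MKK9 can also activate MPK3 and MPK6, and MPK11 is the closest relative of MPK4. The kinases are switched on by phosphorylation, which RNA does not show, so the values below are transcript levels and not kinase activity.

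The site at which a MAP kinase is switched on is a Thr-Glu-Tyr motif in its activation loop. The coding sequence of this site is shown for the 4 MAP kinases so that they can be compared there. Each stretch below is 51 bases long, is taken from the RefSeq sequence of TAIR10.1 on the plus strand, lies within 1 exon and has the Thr-Glu-Tyr codons in capitals.
MPK3, chr3:16757754-16757804: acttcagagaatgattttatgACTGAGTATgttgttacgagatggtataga
MPK6, chr2:18139877-18139927: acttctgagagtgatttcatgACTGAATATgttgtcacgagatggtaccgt
MPK4, chr4:568186-568236: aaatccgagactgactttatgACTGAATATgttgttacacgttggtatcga
MPK11, chr1:203405-203455: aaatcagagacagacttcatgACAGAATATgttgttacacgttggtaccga
The motif begins at codon 196 of MPK3, 221 of MPK6, 201 of MPK4 and 198 of MPK11. MPK11 and MPK4 share 46 of the 51 bases and MPK3 and MPK6 share 43, while the other pairs share 38 to 41. So short a stretch does not measure how alike the whole genes are. The levels and changes of MPK11 and MPK4, and of MPK3 and MPK6, are set side by side below.

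Reads of close relatives can be split between genes by the counting, so the uniqueness of each member was measured. Of the 25-base words in the exons of a member, between 0.07% (MKK9) and 2.58% (MKK5) also occurred elsewhere in the genome, and 6.78% in MEKK1. MEKK1 lies on chromosome 4 (chr4:5403671-5407320, minus strand) near its relatives MEKK2 and MEKK3. MPK3 (chr3:16756571-16758874), MPK4 (chr4:566917-570299), MPK6 (chr2:18138246-18140988) and MPK11 (chr1:202103-204440) lie on the plus strand, as do MKK1 (chr4:13217475-13219936), MKK4 (chr1:19154323-19156338) and MKK5 (chr3:7445604-7448498). MKK2 (chr4:14592963-14595384) and MKK9 (chr1:27639091-27640643) lie on the minus strand, and MKK4 and MKK9 have no intron. Overlaps with genes on the other strand cover 1029 bases of MPK4 (AT4G01380 and AT4G01390), 312 of MPK6, 192 of MPK3 and 22 of MKK1 (ABI1). AT4G01390 had 15.22, 7.49 and 12.8 FPKM under flooding, 5.12, 6.96 and 9.62 FPKM under submergence and 11.64, 15.25 and 16.51 FPKM in control, with all submergence samples below all control samples, while the overlapping genes of MPK3 and MPK6 had at most 0.05 FPKM. ABI1 was higher in every flooding sample than in every control sample, and its submergence samples overlapped control. MKK4 overlaps HTT5 on the same strand by 204 bases and MKK5 overlaps 4CL4 on the other strand by 459 bases. HTT5 and 4CL4 were themselves higher in each stressed sample than in each control sample, and how reads in the shared bases were assigned is not given in the sources used here.

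Facts about the samples that bear on all results were as follows. The values are FPKM, the sequenced fragments of a transcript scaled by its length and by the fragments of the whole sample, so levels can be set side by side between genes. The FPKM of all genes summed to between 752249 and 786474 per sample, and how many reads stand behind a gene cannot be read from them. Leaf markers were high in every sample and the 4 root and 5 flower markers stayed at or below 0.37 FPKM in a tissue labelled shoot. The 5 shoot apex markers summed to between 0.12 and 10.2 FPKM, with low sums in 1 sample of each group. The stomatal lineage markers FAMA and MUTE summed to 18.9 to 20.8 FPKM under flooding, 17.9 to 24.1 under submergence and 22.8 to 28.7 in control, and the part of cell composition in the results was not tested. In whole rosettes fewer cells of a type and less RNA per cell cannot be told apart.

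All 10 members were expressed in every sample. Under flooding the order of levels, from high to low, was MPK3 with 516 ± 33.8 FPKM (SD, n = 3), MKK9, MPK6, MEKK1, MKK2, MPK11, MPK4, MKK4, MKK5 and MKK1. There the samples overlapped between MPK6 and MEKK1, MEKK1 and MKK2, MPK11 and MPK4, and MPK4 and MKK4. Under submergence it was MPK3 with 288 ± 90.2 FPKM (SD, n = 3), MKK9, MPK6, MKK2, MPK4, MEKK1, MKK4, MKK1, MKK5 and MPK11, and every neighbouring pair between MPK4 and MKK5 overlapped. In control it was MPK3 with 67.0 ± 8.76 FPKM (SD, n = 3), MPK6, MKK2, MPK4, MKK9, MEKK1, MKK1, MKK5, MKK4 and MPK11, which was lowest with 1.51 ± 0.28 FPKM (SD, n = 3). No neighbours in the control order had overlapping samples. MPK11 thus stood at rank 6 under flooding, against rank 10 under submergence and in control, and MKK9 stood at rank 2 under both stresses, against rank 5 in control.

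**Figure D1:**
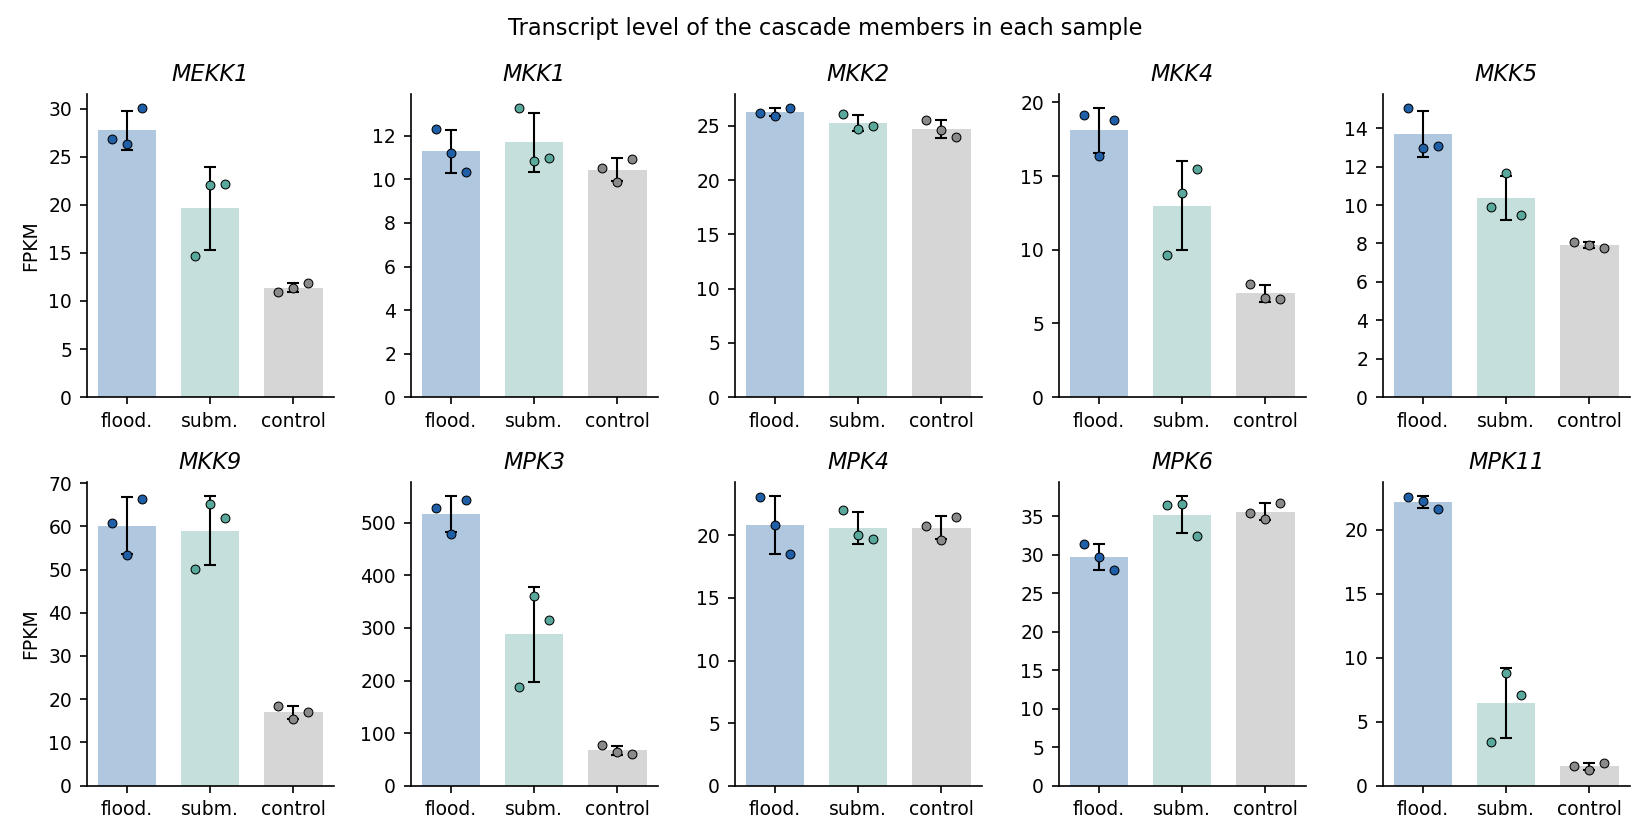
FPKM of the 10 members on linear axes from 0, with flooding (flood.), submergence (subm.) and control from left to right in each panel. Points are the 3 samples of each group, bars their means and error bars their SD. MPK3, MPK11, MKK4, MKK5, MKK9 and MEKK1 lie above control in every stressed sample, and MPK4, MKK1 and MKK2 stay near their control levels.

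Each stress was compared with control by limma on log2(FPKM + 0.1), with p adjusted by the Benjamini-Hochberg method over all genes with a mean of at least 0.5 FPKM. All 10 members passed this filter. A transcript was called at an adjusted p under 0.05, and fold changes are on this log2 scale. Under flooding 6 of the 10 members were up-regulated and 1 was down-regulated, where 11.4% of the 18806 genes tested were up-regulated and 17.2% were down-regulated. Under submergence the same 6 members were up-regulated and 0 were down-regulated, where 9.03% of the 18814 genes tested were up-regulated and 8.45% were down-regulated. The submergence count of 6 fell to 2 without control 2 and to 3 without control 1, control 3 or submergence 2, and was 3 with a fold change of at least 2. In 7 members all flooding samples were above all control samples (15.8% of all genes tested) and in 1 all were below (30.8%). In 6 members all submergence samples were above all control samples (16.6% of all genes tested) and in 0 all were below (21.9%). The median change of the 10 members was 1.03 under flooding and 0.57 under submergence, and that of all genes tested was -0.10 under flooding and -0.03 under submergence. After median-of-ratios rescaling the median of all genes under flooding was -0.00 and 2622 genes were up-regulated and 2299 down-regulated, against 2137 up-regulated and 3229 down-regulated in the deposited scaling.

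At the head of the cascade, MEKK1 was up-regulated by both stresses. MEKK1 had 26.84, 26.29 and 30.06 FPKM in the flooding samples, 14.66, 22.01 and 22.17 FPKM in the submergence samples and 10.98, 11.30 and 11.91 FPKM in the control samples. Every stressed sample was above every control sample, and all flooding samples were above all submergence samples. The log2 fold change was 1.27 (SE 0.09, adjusted p = 5.21e-05) under flooding and 0.75 (SE 0.16, adjusted p = 0.023) under submergence. The submergence call did not hold when any control sample, submergence 2 or submergence 3 was left out, where the adjusted p rose to at most 0.086 and the change stayed between 0.65 and 0.79.

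The 5 MAP kinase kinases differed among themselves. MKK9 rose most, MKK4 and MKK5 rose less, and MKK1 and MKK2, the kinases that link MEKK1 to MPK4, were not called.

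MKK9 had 60.7, 53.4 and 66.4 FPKM under flooding, 50.1, 65.1 and 61.9 FPKM under submergence and 18.3, 15.4 and 17.1 FPKM in control. The stressed samples were all far above the control samples, while the flooding and submergence samples lay in the same range. Its log2 fold change was 1.82 (SE 0.11, adjusted p = 2.52e-05) under flooding and 1.79 (SE 0.12, adjusted p = 0.000726) under submergence. MKK9 was called in all 14 alternative settings of each comparison with control.

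For MKK4, the FPKM were 19.1, 16.4 and 18.8 under flooding, 9.64, 13.8 and 15.5 under submergence and 7.69, 6.74 and 6.69 in control. For its close relative MKK5 they were 15.1, 13.0 and 13.1 under flooding, 9.91, 11.7 and 9.49 under submergence and 8.05, 7.92 and 7.77 in control. In both genes the 3 groups did not overlap, with flooding highest and control lowest. MKK4 changed by 1.35 (SE 0.11, adjusted p = 9.39e-05) under flooding and by 0.85 (SE 0.18, adjusted p = 0.0199) under submergence. MKK5 changed by 0.78 (SE 0.10, adjusted p = 0.000939) under flooding and by 0.38 (SE 0.10, adjusted p = 0.0459) under submergence. Both flooding calls held in all 14 alternatives that set no minimum fold, and with a fold change of at least 2 MKK4 was called and MKK5 was not. Under submergence MKK4 was called in 10 of 14 alternatives and MKK5 in 7 of 14, and each lost its call when control 1, 2 or 3 or submergence 2 was left out.

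MKK1 had 12.32, 11.22 and 10.34 FPKM under flooding, 13.28, 10.84 and 10.97 FPKM under submergence and 10.53, 9.87 and 10.95 FPKM in control. MKK2 had 26.18, 25.93 and 26.64 FPKM under flooding, 26.04, 24.68 and 24.99 FPKM under submergence and 25.55, 24.61 and 23.96 FPKM in control. The groups of MKK1 overlapped, whereas all flooding samples of MKK2 lay slightly above all control samples. The change of MKK1 was 0.11 (95% confidence interval -0.13 to 0.34, adjusted p = 0.47) under flooding and 0.16 (-0.10 to 0.41, adjusted p = 0.364) under submergence. The change of MKK2 was 0.09 (-0.08 to 0.26, adjusted p = 0.42) under flooding and 0.03 (-0.13 to 0.19, adjusted p = 0.804) under submergence.

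**Figure D2:**
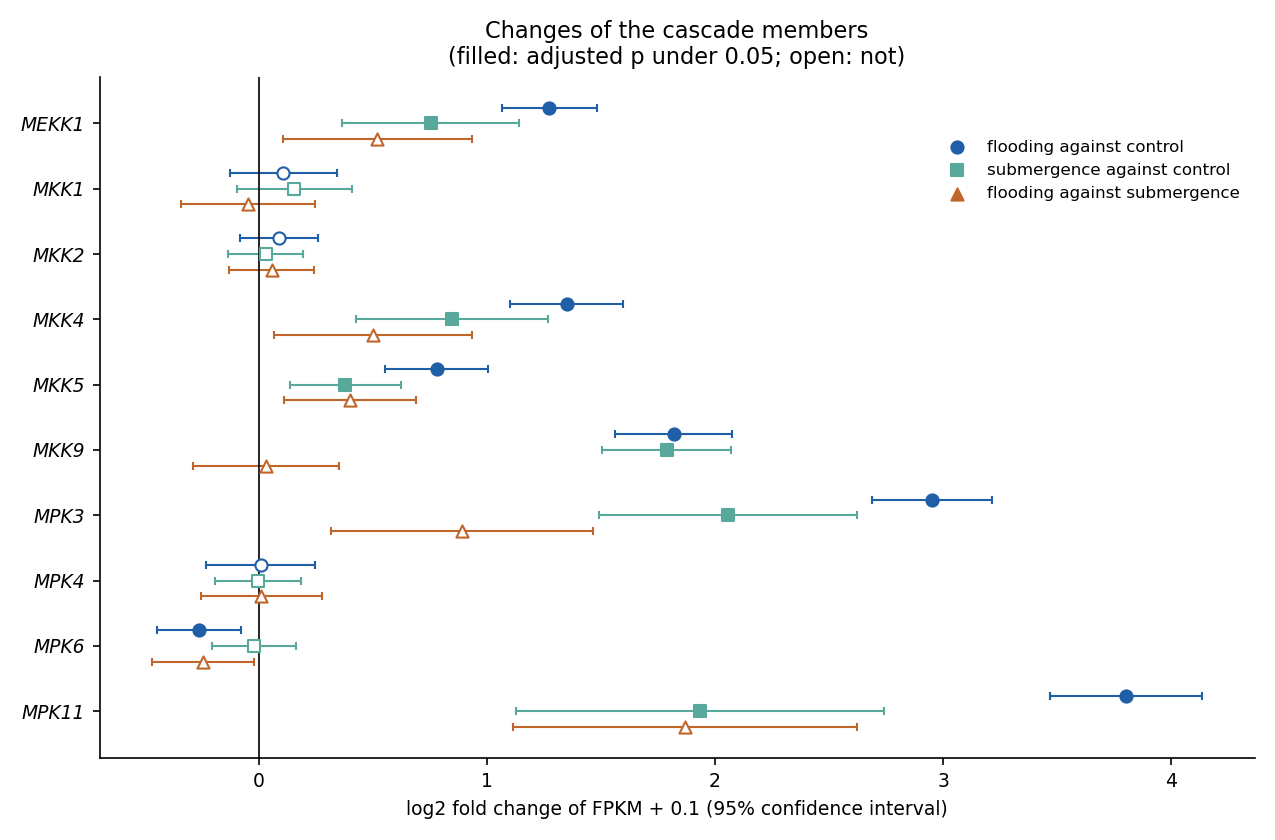
Log2 fold changes of the 10 members from limma on FPKM + 0.1, with 95% confidence intervals, for flooding against control (circles), submergence against control (squares) and flooding against submergence (triangles). Filled symbols have an adjusted p under 0.05. MPK11 and MPK3 changed most under flooding, with 3.80 and 2.95, and no member was called between flooding and submergence.

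Among the MAP kinases, MPK3 and MPK11 were strongly up-regulated. The members most like them in the activation loop stretch, MPK6 for MPK3 and MPK4 for MPK11, were not. MPK3 had 528, 478 and 543 FPKM under flooding, 188, 361 and 316 FPKM under submergence and 77.0, 63.3 and 60.7 FPKM in control. The 3 groups did not overlap, and submergence 1 was well below the other submergence samples. The mean of MPK3 was 7.71-fold that of control under flooding and 4.30-fold under submergence. Its log2 fold change was 2.95 (SE 0.11, adjusted p = 5.48e-06) under flooding and 2.06 (SE 0.24, adjusted p = 0.00254) under submergence, and both were called in all 14 alternatives.

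MPK11 had 22.5, 22.2 and 21.6 FPKM under flooding, 3.44, 8.82 and 7.05 FPKM under submergence and 1.54, 1.22 and 1.77 FPKM in control. The flooding samples lay close together and far above the rest, and the lowest submergence sample was again submergence 1. The mean of MPK11 was 14.7-fold that of control under flooding and 4.26-fold under submergence. The log2 fold change was 3.80 (SE 0.14, adjusted p = 5.34e-06) under flooding, rank 107 from the top of 18806 genes, and 1.93 (SE 0.34, adjusted p = 0.0111) under submergence, rank 336 of 18814. Without control 2 the submergence change of MPK11 was 1.80 with an adjusted p of 0.0515.

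MPK4 had 23.1, 20.9 and 18.5 FPKM under flooding, 22.1, 20.0 and 19.7 FPKM under submergence and 20.7, 19.7 and 21.5 FPKM in control. All groups of MPK4 overlapped. Its change was 0.01 (95% confidence interval -0.23 to 0.25, adjusted p = 0.961) under flooding and -0.00 (-0.19 to 0.19, adjusted p = 0.988) under submergence.

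MPK6 had 31.4, 29.7 and 28.0 FPKM under flooding, 36.5, 36.7 and 32.4 FPKM under submergence and 35.4, 34.6 and 36.8 FPKM in control. The flooding samples were below all others, and the submergence and control samples overlapped. MPK6 was down-regulated under flooding by a small amount (log2 fold change -0.26, SE 0.08, adjusted p = 0.0433). The fall was called in 5 of 14 alternatives. It was not called after median-of-ratios rescaling (-0.16, adjusted p = 0.17) nor when any 1 of the 6 samples was left out. Under submergence the change of MPK6 was -0.02 (95% confidence interval -0.20 to 0.16, adjusted p = 0.896).

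A plain ratio between members of 1 sample does not depend on how that sample was scaled. Here 0.1 FPKM was added to both levels first, which weighs most on the low MPK11 values in control. The log2 ratio of MPK3 to MPK6 was 4.12 ± 0.14 under flooding, 2.98 ± 0.54 under submergence and 0.90 ± 0.20 in control (SD, n = 3 each). The log2 ratio of MPK11 to MPK4 was 0.09 ± 0.13 under flooding, -1.76 ± 0.78 under submergence and -3.70 ± 0.19 in control (SD, n = 3 each). In both ratios all flooding samples were above all submergence samples, and these above all control samples. MPK11 and MPK4 had overlapping levels under flooding, whereas MPK11 lay below MPK4 in every submergence and control sample. Exact two-sided permutation tests of 3 against 3 samples gave p = 0.1 for each of these 6 differences, the smallest p this design allows, or 0.15 after adjustment over the 15 ratio tests made.

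Among the MAP kinase kinases, the log2 ratio of MKK4 to MKK5 was 0.40 ± 0.11 under flooding, 0.30 ± 0.37 under submergence and -0.17 ± 0.09 in control (SD, n = 3 each). MKK4 was thus above MKK5 in all flooding samples and below it in all control samples. The ratio of MKK9 to MKK5 was 2.13 ± 0.18 under flooding, 2.49 ± 0.18 under submergence and 1.09 ± 0.12 in control on the same scale. Against control the stressed samples did not overlap in either ratio under either stress (exact permutation p = 0.1, adjusted 0.15). Between flooding and submergence the exact permutation p was 0.7 for MKK4 over MKK5 and 0.2 for MKK9 over MKK5. For MKK1 over MKK2 the ratio was -1.21 under flooding, -1.11 under submergence and -1.23 in control, and the exact permutation p lay between 0.3 and 0.9.

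The makeup of each tier followed from these changes. MPK3 held 87.3%, 86.8% and 88.8% of the summed FPKM of the 4 MAP kinases in the flooding samples, 75.2%, 84.7% and 84.2% in the submergence samples and 57.2%, 53.3% and 50.3% in the control samples. The sum itself was 589 ± 33.0 FPKM under flooding, 350.5 ± 91.2 FPKM under submergence and 125 ± 8.68 FPKM in control (SD, n = 3 each). MPK3 thus made up most of the summed FPKM of these 4 MAP kinases in every sample. Its share was higher in each stressed sample than in any control sample. The 16 other MAP kinases are not part of this sum. The mean share of MPK6 was 5.05% under flooding, 10.6% under submergence and 28.6% in control, although its own level moved little. Of the 5 MAP kinase kinases, MKK9 held 46.4% ± 2.40 under flooding, 49.3% ± 2.96 under submergence and 25.2% ± 1.23 in control (SD, n = 3 each). MKK2 held 20.3% under flooding, 21.3% under submergence and 36.9% in control, where its share was the highest of the 5.

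**Figure D3:**
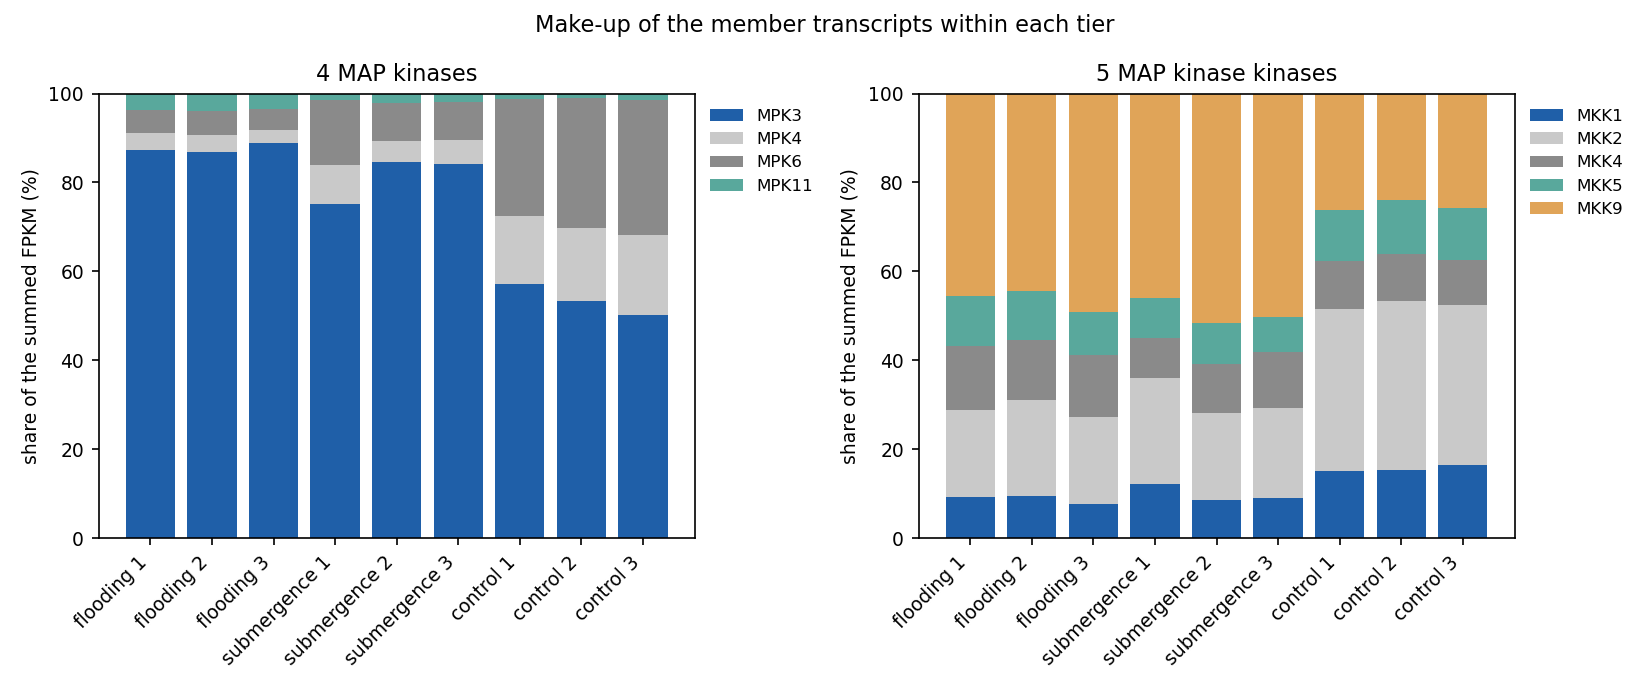
Share in percent of the summed FPKM of the 4 MAP kinases and of the 5 MAP kinase kinases that each member held, in every flooding, submergence and control sample. MPK3 held 86.8% to 88.8% of the MAP kinase tier under flooding and 50.3% to 57.2% in control.

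Flooding was then compared directly with submergence, which asks whether flooding in the channel changed the members more than submergence in the container. No member was called, and neither was any other of the 18864 genes tested (0.0%), although 2780 genes (14.7%) had an unadjusted p under 0.05 by limma. Of the 10 members 6 had an unadjusted p under 0.05. In 5 members, MPK3, MPK11, MKK4, MKK5 and MEKK1, all flooding samples were above all submergence samples, as in 6.2% of all genes tested, and in MPK6 all were below, as in 15.4% of all genes.

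The difference was largest for MPK11, with a log2 fold change of 1.87 (95% confidence interval 1.11 to 2.62, adjusted p = 0.13), rank 58 from the top of 18864 genes. It was called only in the fit of all 9 samples together (adjusted p = 0.035), where 88 genes in all were higher under flooding and 139 lower. MPK3 differed by 0.89 (0.32 to 1.47, adjusted p = 0.194), MEKK1 by 0.52 (0.11 to 0.93, adjusted p = 0.255), MKK4 by 0.50 (0.07 to 0.94, adjusted p = 0.287) and MKK5 by 0.40 (0.11 to 0.69, adjusted p = 0.228). MKK9 differed by 0.03, with an interval of -0.29 to 0.35. Without submergence 1, the lowest submergence sample for MPK3, MPK11, MKK4, MKK9 and MEKK1, the differences were 1.48 for MPK11, 0.61 for MPK3, 0.32 for MEKK1 and 0.30 for MKK4, and 0 members were called.

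The promoters of the 4 MAP kinases are shown because MPK3 and MPK6, and likewise MPK11 and MPK4, differed in their changes. Each is the 250 bases before the annotated start of the gene in RefSeq's TAIR10.1, on the plus strand, with any match to the motifs searched in capitals. Both strands were searched. The W box, the site of WRKY transcription factors, was searched as TTGACC or as TTGACT. The stretch CGCGTT was searched in this form only, so other sites with a CGCG core were not counted. The G box of bZIP and bHLH factors was searched as CACGTG, the GCC box of ERF factors as GCCGCC and the core of TGA factor sites as TGACG. The last of these ends in another base than the W box, so no match was counted as both on 1 strand.
MPK3, chr3:16756321-16756570: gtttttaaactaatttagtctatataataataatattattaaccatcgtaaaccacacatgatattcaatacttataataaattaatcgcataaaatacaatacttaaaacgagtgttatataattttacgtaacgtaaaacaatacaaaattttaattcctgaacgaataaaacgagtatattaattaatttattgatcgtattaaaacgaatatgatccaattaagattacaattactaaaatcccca
MPK6, chr2:18137996-18138245: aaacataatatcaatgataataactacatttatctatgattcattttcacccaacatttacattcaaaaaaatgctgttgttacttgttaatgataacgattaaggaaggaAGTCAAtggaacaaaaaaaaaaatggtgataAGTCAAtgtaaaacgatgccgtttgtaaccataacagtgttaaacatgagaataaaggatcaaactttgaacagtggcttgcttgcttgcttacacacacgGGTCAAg
MPK4, chr4:566667-566916: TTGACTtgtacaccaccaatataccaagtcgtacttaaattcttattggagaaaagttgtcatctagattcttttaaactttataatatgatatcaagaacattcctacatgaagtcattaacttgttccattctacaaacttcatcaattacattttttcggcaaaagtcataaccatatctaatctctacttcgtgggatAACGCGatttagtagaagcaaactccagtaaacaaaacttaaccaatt
MPK11, chr1:201853-202102: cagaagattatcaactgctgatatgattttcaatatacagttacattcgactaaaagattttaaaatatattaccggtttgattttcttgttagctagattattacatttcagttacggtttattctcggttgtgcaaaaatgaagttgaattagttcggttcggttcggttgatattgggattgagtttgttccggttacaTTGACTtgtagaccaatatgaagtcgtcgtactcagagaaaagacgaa
MPK11 held 1 W box, 48 bases before the start. MPK4 held 1 W box at the far end of the window and 1 CGCGTT, 48 bases before the start. MPK6 held 3 W boxes, and MPK3 held none of the motifs. Of the other members, MKK2 held 3 W boxes, MKK9 held 1 GCC box and MEKK1 held 1 CGCGTT, while MKK1, MKK4 and MKK5 held none of the motifs. The G box and the TGA core were in none of the 10 promoters. Among 27419 promoters of the same length, 28.4% held a W box, 2.6% the stretch CGCGTT, 1.9% a GCC box, 6.5% a G box and 18.6% a TGA core. Among the up-regulated members only MPK11 thus held a W box, and among the others MPK4, MPK6 and MKK2 did. A match is a description of the letters in this window only.

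For each member, the 2 other genes with the most similar profile were sought among 18856 genes, by the root mean square difference of centred log2(FPKM + 0.1) values over the 9 samples. For MPK3 these were CBP60G, with a difference of 0.10, and LYK5, with 0.12, beside a range of 3.16 of MPK3 itself. CBP60G had 112, 93.4 and 102 FPKM under flooding, 35.9, 66.0 and 53.1 FPKM under submergence and 13.5, 10.4 and 11.4 FPKM in control, a pattern that includes the low value of submergence 1. For MPK11 they were CCR4 (0.16) and HIPP14 (0.17), for MKK4 AT2G40270 (0.065) and SNAP33 (0.073), for MKK5 AT4G39570 (0.074) and KCS8 (0.086), for MKK9 ERF003 (0.089) and AT4G25620 (0.11), and for MEKK1 VPS2.1 (0.072) and AT3G49350 (0.085). The profiles of MPK4, MPK6, MKK1 and MKK2 ranged over less than 0.43 on this scale, and their nearest genes are those that also varied little: AT2G18740 and PBC2 for MPK4, HVT1 and CKA1 for MPK6, AT1G14820 and BRK1 for MKK1, and DGD1 and USP for MKK2.

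The remaining genes of the cascade were counted in the same fits, in which 11.4% of all genes tested were up-regulated and 17.2% down-regulated under flooding, and 9.03% up-regulated and 8.45% down-regulated under submergence. Of the 19 other MEKK-type MAP kinase kinase kinases, 18 were tested, and 9 were up-regulated and 0 down-regulated under flooding, and 5 up-regulated and 0 down-regulated under submergence. Their median change was 0.65 under flooding and 0.36 under submergence. The largest rises under flooding were those of MAPKKK21 (3.31), MAPKKK14 (2.93) and MAPKKK16 (2.13), and under submergence those of MAPKKK14 (2.39), MAPKKK13 (2.26) and MAPKKK16 (1.86). MAPKKK14, for example, had 14.8, 16.8 and 25.9 FPKM under flooding, 13.4, 11.7 and 13.3 FPKM under submergence and 3.29, 1.76 and 2.24 FPKM in control. In control MAPKKK21 had only 0.55, 0.6 and 0.32 FPKM and MAPKKK16 only 0.32, 0.18 and 0.15 FPKM. The added 0.1 FPKM therefore weighs on both changes. Several of the MEKK-type kinases act on MKK3 in abscisic acid and wound signalling. MEKK2 and MEKK3, the tandem neighbours of MEKK1, were looked up after the values were seen, and their changes were -0.19 and -0.15 under flooding, without a call.

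Of the 16 other MAP kinases, 15 were tested, and 4 rose and 5 fell under flooding, and 6 rose and 3 fell under submergence, with a median of -0.23 under flooding and 0.04 under submergence. Among all genes tested the shares were 11.4% up-regulated and 17.2% down-regulated under flooding, and 9.03% and 8.45% under submergence. MPK5 (1.45 under flooding, 0.92 under submergence), a close relative of MPK4 and MPK11, and MPK17 (1.13 under flooding, 0.79 under submergence) rose most in both comparisons. MPK14 (-1.26) and MPK1 (-1.05) fell most under flooding. MPK14 was low in both groups, with 0.44, 0.34 and 0.25 FPKM under flooding and 1.02, 0.93 and 0.89 FPKM in control. Only 2 of the 5 other MAP kinase kinases reached the minimum level. MKK6, which acts in cell division, rose under flooding (1.16), and 0 were called under submergence. MKK6 was low, with 2.24, 2.14 and 1.12 FPKM under flooding, 1.1, 1.58 and 1.05 FPKM under submergence and 0.92, 0.72 and 0.59 FPKM in control. Its submergence samples were also all above control, as in 16.6% of all genes tested, with a change of 0.67 (adjusted p = 0.137 by limma).

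Phosphatases remove the phosphates that switch MAP kinases on. Of 10 listed, 9 were tested. AP2C1 and AP2C2 rose under both stresses, where 11.4% of all genes tested rose under flooding and 9.03% under submergence. DSPTP1 fell under flooding (-0.72), where 17.2% of all genes tested fell, and 0 fell under submergence, where 8.45% did. AP2C1, a phosphatase that acts on MPK4 and MPK6, had 46.3, 43.8 and 49.1 FPKM under flooding, 11.8, 32.2 and 16.7 FPKM under submergence and 4.73, 3.38 and 4.99 FPKM in control. All flooding samples were above all submergence samples, and these above all control samples. Its log2 fold change was 3.40 (SE 0.15, adjusted p = 8.13e-06) under flooding and 2.08 (SE 0.35, adjusted p = 0.00967) under submergence. AP2C2 had 3.95, 3.26 and 6.33 FPKM under flooding, 1.25, 2.85 and 2.18 FPKM under submergence and only 0.18, 0.08 and 0.12 FPKM in control. It changed by 4.32 under flooding and 3.23 under submergence. Its control values are about as small as the added 0.1 FPKM, which therefore weighs on both changes. The median of the 9 phosphatases was -0.10 under flooding and 0.03 under submergence, so most of the list stayed near the median of all genes.

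Known partners and substrates of the cascade were taken from a list of 18 genes, of which 17 were tested. Under flooding 9 rose and 3 fell (median 1.09), and under submergence 9 rose and 1 fell (median 0.71). Among all genes tested 11.4% rose and 17.2% fell under flooding and 9.03% rose and 8.45% fell under submergence, and the 3 falls under flooding are a share near that of all genes. The largest rises under flooding were those of the transcription factors ERF6 (4.21), ZAT10 (3.94) and ERF104 (3.70), all of which are phosphorylated by MPK3 or MPK6, and the same 3 genes rose most under submergence, ERF6 by 3.07, ZAT10 by 3.35 and ERF104 by 3.55. ERF6 had 247, 223 and 270.3 FPKM under flooding, 72.6, 171 and 111 FPKM under submergence and 14.2, 9.96 and 16.3 FPKM in control. The genes that fell under flooding were SUMM2 (-0.88), an immune receptor that guards the MEKK1-MPK4 branch, VIP1 (-0.55), a substrate of MPK3, and ASR3 (-0.41), a substrate of MPK4. The 5 partners tested but not called under flooding were WRKY25 (0.36), ACS2 (1.07), ICE1 (-0.19), SPCH (-0.20) and WRKY29 (-0.03). FRK1 was not tested, with 0.54, 0.44 and 0.15 FPKM under flooding. No gene of the 5 other lists was called between flooding and submergence.

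**Figure D4:**
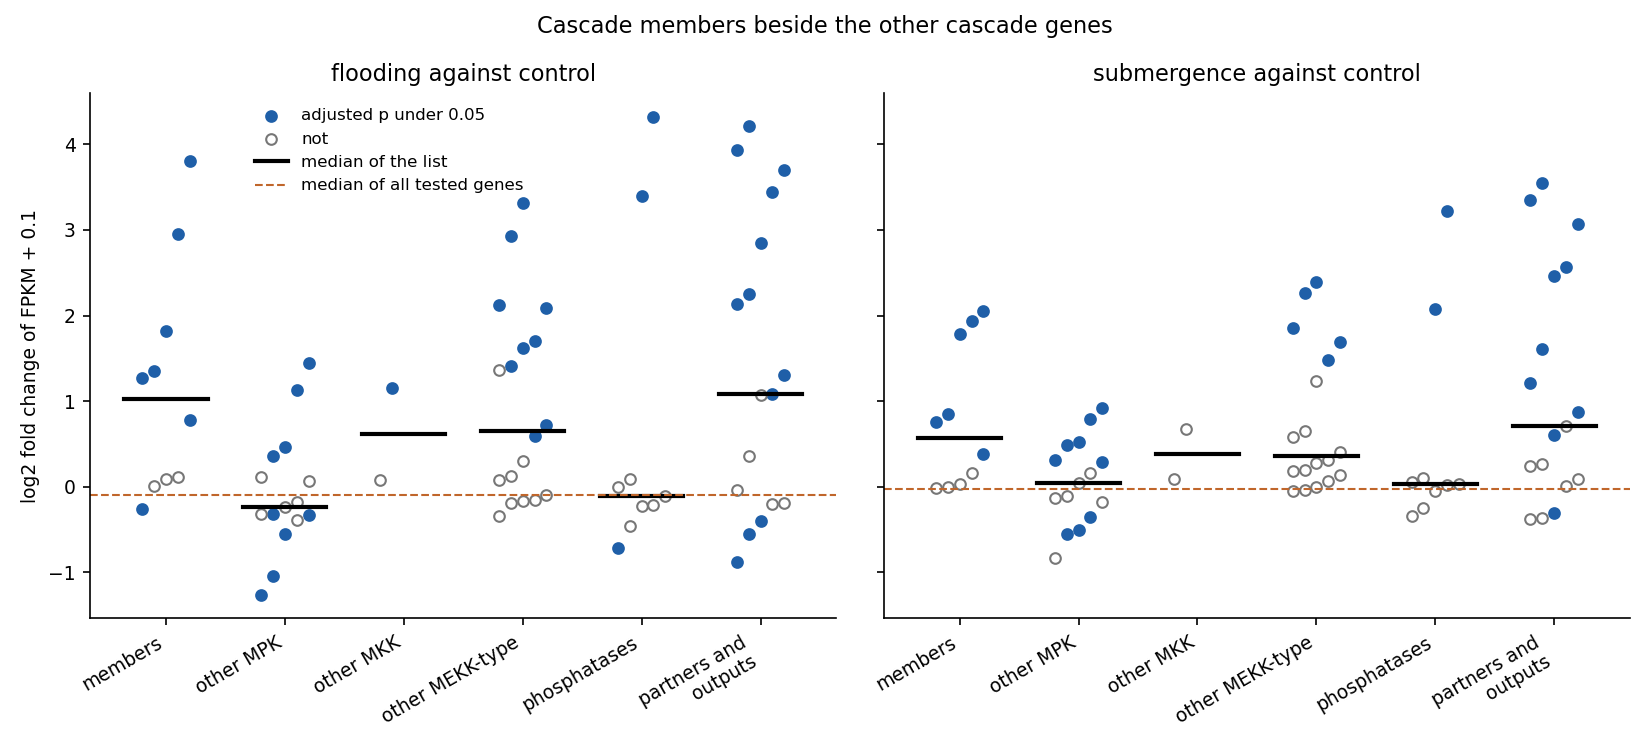
Log2 fold changes of the members and of the 5 other lists of cascade genes under flooding and under submergence, each against control, with 1 point per tested gene, filled where the adjusted p was under 0.05. Thick lines are list medians and the dashed line is the median of all genes tested. The MEKK-type kinases hold called rises and no called fall, and the other MAP kinases hold both.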

How the data were processed

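RNA-Seq of 9 pools of shoots, with its mapping and expression analysis, was done for the authors by K.K. DNAFORM. Poly(A) RNA was made into libraries with a stranded kit, and the reads were trimmed, mapped to TAIR10 and counted on genes. The authors deposited FPKM with 2 decimals, normalized to total counts and transcript length. The methods name featureCounts, while the deposited table is named after another counting tool, and which of them made the values is not given in the sources used here. The study tested counts with DESeq2 1.20.0, which needs counts and was not run on FPKM. Column names say only which of 2 stresses a sample had, and the 2 were told apart by the headings of the study's plots, so every statement on flooding or submergence rests on that assignment. The number of columns of other samples was 0.

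For each comparison, log2(FPKM + 0.1) of the 6 samples involved was fitted by limma (version 3.58.1, R 4.3.3, trended eBayes), leaving out genes below a mean of 0.5 FPKM. Tests were two-sided, and a transcript was called where p, adjusted over all genes by Benjamini-Hochberg, was under 0.05. Ratios were taken of FPKM + 0.1 and tested by exact two-sided permutation. The members and lists were chosen with earlier results of these data known. All 10 members are named, and for each member the 2 genes nearest in profile. Of each other list at most the 3 largest rises and 3 largest falls per comparison are named. MEKK2, MEKK3 and the partners without a call under flooding are named besides. Members had the same start and end in RefSeq's TAIR10.1, as did 99.95% of 32548 nuclear genes. Protein sequences were not used here. Depth per gene is not known from FPKM, so precision is given as the spread between samples, which the study's methods call independent biological replicates. Alternatives were other pseudocounts, filters, scalings, variance models and fits, a replicate block and leaving out each sample. Python 3.11.15, pandas 2.3.3, scipy 1.17.1 and matplotlib 3.10.9 were used.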

Additional observations from a re-analysis of the deposited data

How the results depend on the processing

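Under flooding the rises of MPK3, MPK11, MKK4, MKK5, MKK9 and MEKK1 were called in all 14 alternatives that set no minimum fold, with 6 or 7 members called, and 5 where a 2-fold change was required, without MKK5 and MPK6. Under submergence 5 or 6 members were called with other pseudocounts, filters, scalings and fits, 3 with a fold change of at least 2 (MPK3, MPK11 and MKK9), and 2 to 6 when single samples were left out. The 2 that stayed called without control 2 were MPK3 and MKK9. Between flooding and submergence 0 members were called in the other alternatives and 1, MPK11, in the fit of all 9 samples.

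Signs turned only for changes close to 0 that were not called. After median-of-ratios rescaling the change under submergence was 0.022 for MPK4 and 0.0056 for MPK6, and MKK1 differed by 0.026 between flooding and submergence. After quantile normalization MKK2 changed by -0.0069 under submergence, and MKK1 differed by 0.012 between flooding and submergence. With single samples left out, the change under submergence ranged from -0.053 to 0.028 for MPK4 and from -0.050 to 0.039 for MPK6, and under flooding from -0.068 to 0.091 for MPK4. Between flooding and submergence it ranged from -0.065 to 0.093 for MPK4, from -0.11 to 0.046 for MKK1 and from -0.083 to 0.11 for MKK9. The log2 ratio of MKK1 to MKK2 under flooding against control ranged from -0.045 to 0.093, and that of MKK4 to MKK5 between flooding and submergence from -0.069 to 0.30.

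Samples with the same number did not deviate together against control (correlations -0.15 to 0.12), and between flooding and submergence the correlations were 0.06 to 0.47. For 2 of 3 samples there, the best partner had the same number. With the replicate number as a block (replicate block), 5 members were called under submergence, without MKK5, 6 under flooding, without MPK6, and 0 between flooding and submergence. The reads behind each gene are not known, so no limit from depth is given.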
